A study of Homo sapiens with 8 samples.

Results

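The genes described here make sterols, fatty acids and the glycerolipids built from them, together with the regulators that set their transcription. The list holds 43 genes, and 39 of them had a probe set carrying a single gene symbol, out of 19775 genes measured that way. Each gene was read from its brightest such probe set, the one with the highest mean over the 8 arrays. The measured genes fall into 6 regulators and carriers, 15 enzymes of the sterol branch, 3 enzymes that supply acetyl-CoA and acetoacetyl-CoA, 8 enzymes of the fatty acid branch and 7 of glycerolipid and phospholipid synthesis. FDFT1, CYP51A1, FADS1 and ACSL3 had no single-symbol probe set in the table used and were not analysed here.

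RNA was profiled in 2 human breast cancer lines, T47D, which is luminal and carries the oestrogen receptor, and MDA-MB-231, which is triple-negative and mesenchymal in character. Each line received lentivirus encoding either a control hairpin, written shCtrl, or an XBP1 hairpin, written shXBP1, with selection in puromycin at 2 ug/ml. Every group, controls included, was then kept for 24 h at 0.1% O2 in DMEM without glucose, so the comparison is between hairpins within a combined stress, and unstressed cells were not analysed here. The 4 groups of line and hairpin hold 2 arrays each, called biological replicates in the labels. The labels do not state whether they came from separate infections or cultures. The p-values therefore reflect the spread among these samples alone, and part of it may be technical. Levels are log2 values of a probe set, which cannot be set against those of another gene. Changes are given as shXBP1 minus shCtrl on the log2 scale, with their standard error (SE) and the Benjamini-Hochberg adjusted p of limma over all 19775 genes, and a gene is said to have risen or fallen where that p was under 0.05. In cultures measured in bulk, a lower level may come from less RNA per cell or from fewer cells of a kind, and these cannot be told apart.

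The XBP1 protein drives transcription in the unfolded protein response once the endoplasmic reticulum sensor IRE1 has spliced its mRNA. Sterol and fatty acid synthesis are under the control of the SREBP transcription factors, which are made as precursors in the endoplasmic reticulum membrane. SCAP escorts the precursors to the Golgi, where proteases release the active factor, while INSIG proteins hold SCAP back when sterols are plentiful. SREBF2 encodes the form best known for driving the sterol genes, and SREBF1 encodes the forms best known for driving the fatty acid genes. Desaturation of fatty acids and several late steps of sterol synthesis use molecular oxygen.

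The targeted gene was lower with shXBP1 in both lines with its brighter probe set. XBP1 read 12.41 and 12.56 on the T47D shCtrl arrays and 7.52 and 7.16 on the shXBP1 arrays, a change of -5.15 (SE 0.17, adjusted p = 8.68e-06). Its MDA-MB-231 values were 10.83 and 10.69 with shCtrl and 7.13 and 6.69 with shXBP1, for a change of -3.85 (SE 0.17, adjusted p = 6.93e-05). With the brighter probe set XBP1 thus fell less in MDA-MB-231, a difference of 1.296 (SE 0.247, adjusted p = 0.00745). Between the shCtrl arrays it was lower in MDA-MB-231 (-1.727, SE 0.174, adjusted p = 7.02e-05). The dimmer XBP1 probe set passed in neither test (0.423 and 0.190, adjusted p = 0.176 and 0.315 over all probe sets). The part of these XBP1 differences in the lipid gene results was not tested. The labelled lines showed their markers, since 9 of 9 luminal markers were higher in T47D and 7 of 8 mesenchymal markers higher in MDA-MB-231, with FN1 the exception. Under knockdown in T47D, 5 of the 9 luminal markers fell and 1 rose, and 3 of the 8 mesenchymal markers fell and 1 rose, where 13.5% of all genes fell and 15.5% rose. In MDA-MB-231, 2 luminal markers rose and 0 fell (limma; 5 rose and 0 fell at an unadjusted p under 0.05), and 3 mesenchymal markers rose and 1 fell, where 10.6% of all genes rose and 6.68% fell. The part of these marker shifts in the lipid gene results was not tested. The ACTB signal from the 3' end minus that from the 5' end, a measure of RNA integrity, ran from 0.893 to 1.302 over the arrays, and its part in the results was not tested either.

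In T47D, XBP1 knockdown came with lower levels of most of the lipid synthesis genes. Of the 39 measured genes, 22 fell, 5 rose and 12 did not pass the test. Among all genes 13.5% fell and 15.5% rose (29.1% called in either direction). The median change of the 39 genes was -0.41, against -0.016 over all genes. ACLY, PCYT1A and FASN fell furthest, and LPIN1, SC5D and GPAM rose furthest. Fewer of the genes passed in MDA-MB-231. There 9 genes fell, 6 rose and 24 did not pass, against 6.68% of all genes falling and 10.6% rising (17.2% called). The median of the 39 was -0.065, against 0.030 over all genes. The 2 shXBP1 arrays lay wholly above or below the 2 shCtrl arrays for 34 of the 39 genes in T47D and 31 in MDA-MB-231, where 64.1% and 54.5% of all genes did so. The MDA-MB-231 count went to 9 when only the 4 arrays of that line were fitted, and also to 9 without MDA-MB-231 shCtrl replicate 2. In T47D it was 18 without T47D shCtrl replicate 2 or without T47D shXBP1 replicate 2.

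**Figure D1:**
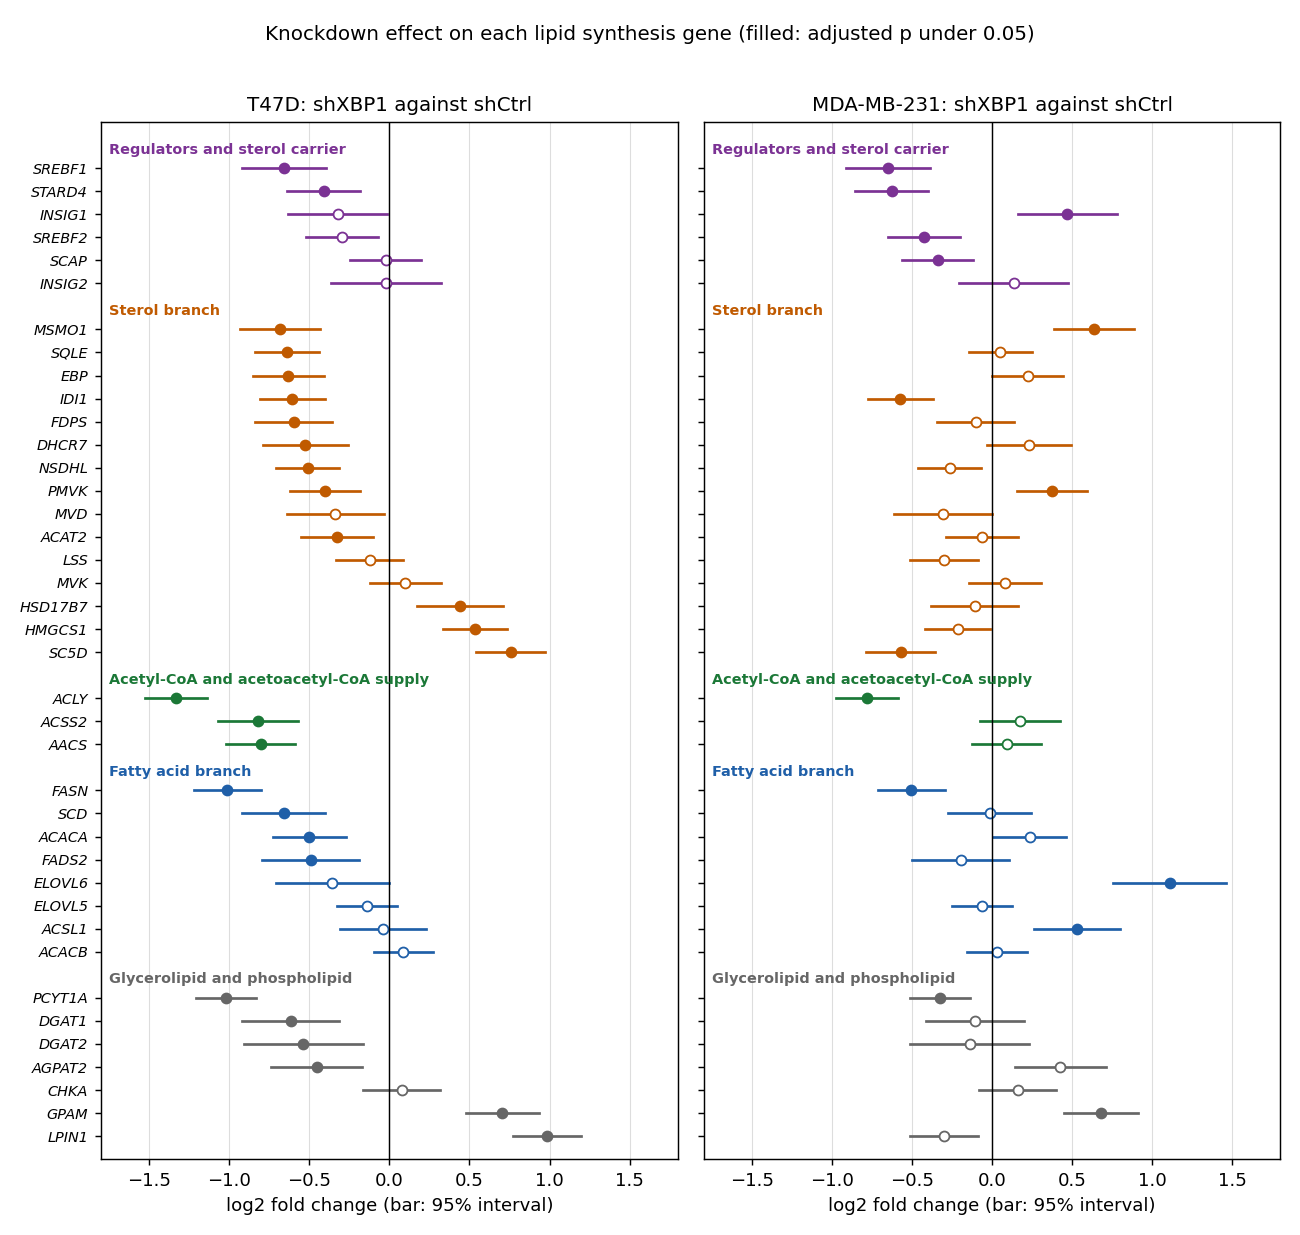
Log2 fold change of shXBP1 against shCtrl for each of the 39 genes, grouped by role, in T47D (left) and MDA-MB-231 (right). Points are the fitted changes, bars their 95% intervals, and filled points have an adjusted p under 0.05. In T47D the filled points lie mostly below 0 (22 fell, 5 rose), while in MDA-MB-231 most points are open (24 of 39).

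Among the regulators, SREBF1 fell in both lines with its brightest probe set. SREBF1, which encodes SREBP-1, read 9.69 and 9.72 with shCtrl and 9.11 and 8.99 with shXBP1 in T47D, a change of -0.66 (SE 0.11, adjusted p = 0.00333). In MDA-MB-231 its values were 9.69 and 9.61 with shCtrl and 8.86 and 9.14 with shXBP1, for a change of -0.65 (SE 0.11, adjusted p = 0.00697). Both shXBP1 arrays lay below both shCtrl arrays in each line, and the effects differed by 0.0090 (95% interval -0.36 to 0.38). A second, dimmer SREBF1 probe set fell in T47D (-0.58, adjusted p = 0.0113 over all probe sets). In MDA-MB-231 that probe set gave -0.099 (adjusted p = 0.677), and its difference between the lines was 0.48 (adjusted p = 0.0995). SREBF2, which encodes SREBP-2, read 8.40 and 8.38 with shCtrl and 7.86 and 8.06 with shXBP1 in MDA-MB-231, where it fell by 0.43 (SE 0.097, adjusted p = 0.0224). SREBF2 lost its MDA-MB-231 call without MDA-MB-231 shCtrl replicate 1 or 2 or MDA-MB-231 shXBP1 replicate 1 (-0.44 to -0.33, adjusted p = 0.0701 to 0.0934, and 0.00724 to 0.0934 over all alternatives). In T47D it read 7.95 and 8.02 with shCtrl and 7.66 and 7.72 with shXBP1, and the change of -0.30 (SE 0.097, adjusted p = 0.0566) did not pass. The T47D result depended on the probe set. The other 2 SREBF2 probe sets gave 0.081 and 0.11 in T47D (adjusted p = 0.676 and 0.561 over all probe sets), and both fell in MDA-MB-231 (-0.43 and -0.48). Their differences between the lines were called (-0.51 and -0.59, adjusted p = 0.0480 and 0.0348 over all probe sets), as was that of the mean over SREBF2 probe sets at -0.41 (adjusted p = 0.0305). With the brightest probe set the SREBF2 difference was -0.13 (adjusted p = 0.560), and the T47D change passed in 6 of the 16 alternatives.

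SCAP, the escort of the SREBP precursors, gave small changes. It read 8.41 and 8.42 with shCtrl and 8.29 and 8.50 with shXBP1 in T47D, so the groups overlapped, with a change of -0.022 (SE 0.095, adjusted p = 0.901). The MDA-MB-231 arrays read 10.49 and 10.49 with shCtrl and 10.17 and 10.14 with shXBP1, a fall of 0.34 (SE 0.095, adjusted p = 0.0471) with no overlap. SCAP lost its MDA-MB-231 call without any 1 of the 8 arrays (-0.35 to -0.32, adjusted p = 0.0566 to 0.146, and 0.0108 to 0.146 over all alternatives). INSIG1, which retains SCAP and is itself a classic SREBP target, gave values of opposite sign in the lines. It read 10.57 and 10.62 with shCtrl and 10.22 and 10.32 with shXBP1 in T47D (-0.32, SE 0.13, adjusted p = 0.117), and 8.97 and 8.97 with shCtrl and 9.64 and 9.24 with shXBP1 in MDA-MB-231, a rise of 0.47 (SE 0.13, adjusted p = 0.0489). The MDA-MB-231 shXBP1 arrays were both higher but lay far apart. INSIG1 lost its MDA-MB-231 call without any 1 array other than MDA-MB-231 shXBP1 replicate 2 (0.27 to 0.47, adjusted p = 0.0758 to 0.152, and 0.00458 to 0.732 over all alternatives). Another INSIG1 probe set, dimmer on average, fell in both lines, by 0.67 in T47D and 0.50 in MDA-MB-231 (adjusted p = 0.00237 and 0.0145 over all probe sets), so the direction in MDA-MB-231 depends on the probe set.

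INSIG2, the second SCAP retention factor, did not pass in either line. Its values were 9.81 and 9.90 with shCtrl and 9.89 and 9.78 with shXBP1 in T47D, and 8.12 and 7.70 with shCtrl and 8.15 and 7.95 with shXBP1 in MDA-MB-231, with the groups overlapping in both. The 95% intervals of its change were -0.36 to 0.32 and -0.21 to 0.48. STARD4, a carrier of cholesterol in the cytosol, fell in both. STARD4 read 9.44 and 9.52 with shCtrl and 9.02 and 9.12 with shXBP1 in T47D (-0.41, SE 0.098, adjusted p = 0.0159). Its MDA-MB-231 values were 10.04 and 9.97 with shCtrl and 9.29 and 9.47 with shXBP1 (-0.63, SE 0.098, adjusted p = 0.00465). The shXBP1 arrays were the lower ones in each line. STARD4 lost its T47D call without T47D shCtrl replicate 1 or 2 or T47D shXBP1 replicate 1 or 2 (-0.46 to -0.36, adjusted p = 0.0504 to 0.109, and 0.00179 to 0.109 over all alternatives). In all, 2 of the 6 regulators and carriers fell in T47D and 0 rose (limma; at an unadjusted p under 0.05, 4 fell and 0 rose), while in MDA-MB-231 4 fell and 1 rose. The shares of all genes were 13.5% falling and 15.5% rising in T47D, and 6.68% falling and 10.6% rising in MDA-MB-231.

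**Figure D2:**
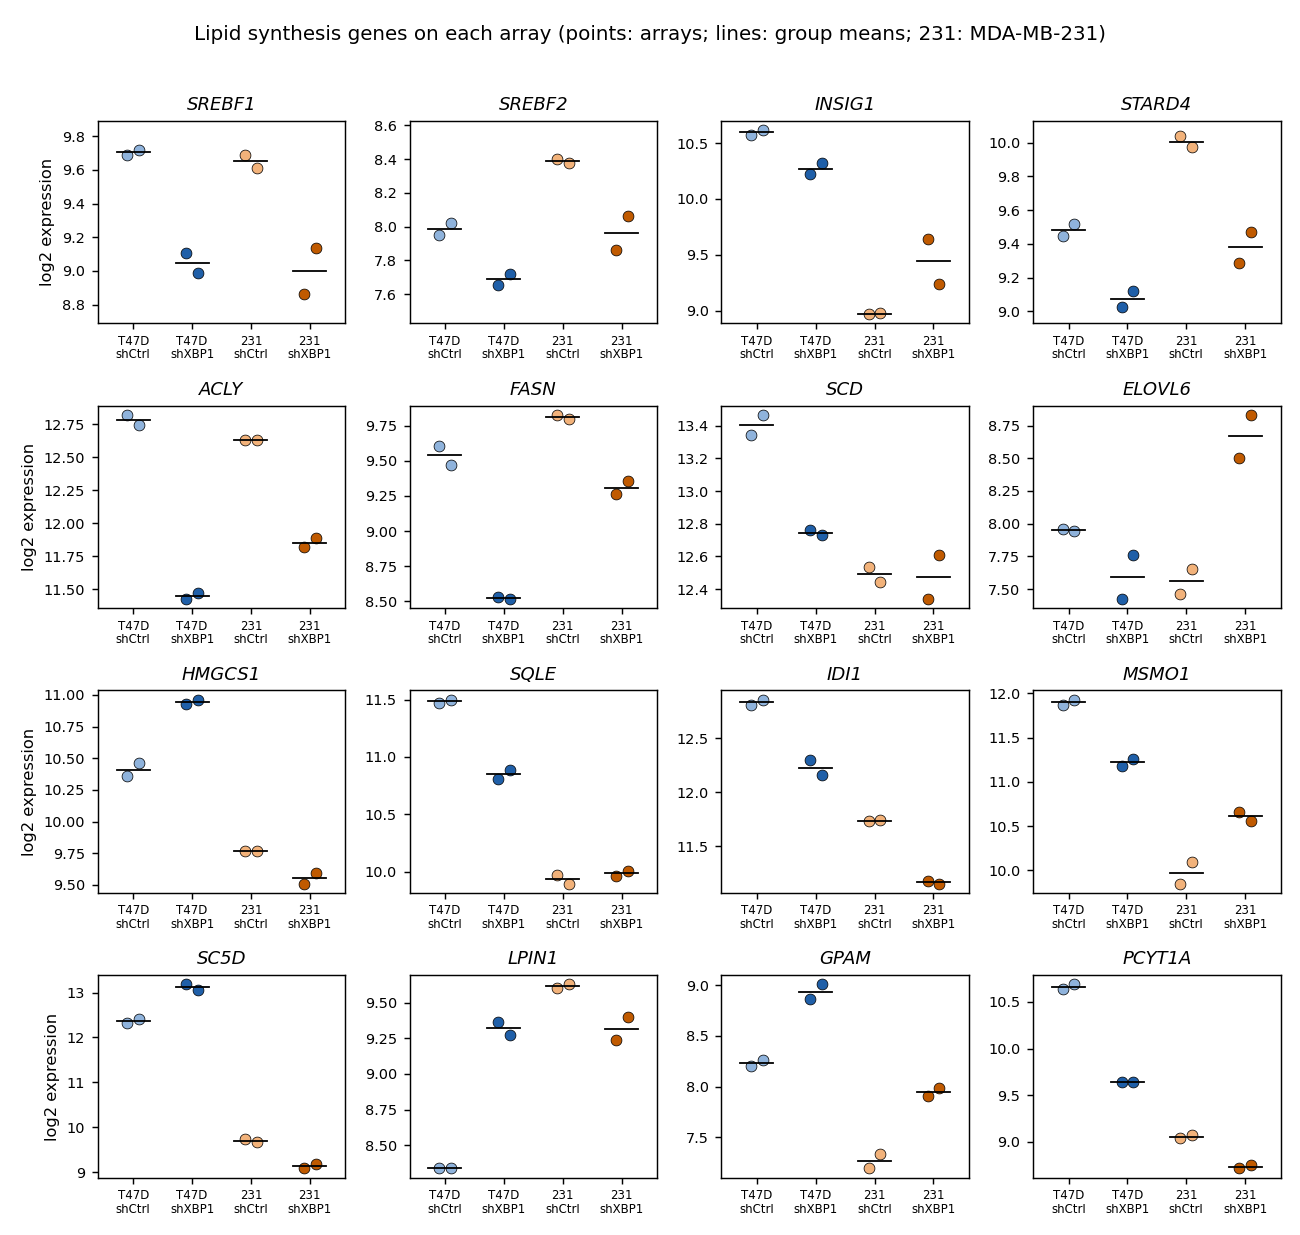
Log2 level of 16 of the genes on each of the 8 arrays, by line and hairpin. Points are arrays and horizontal lines are group means, and each panel has its own scale, so levels are not comparable between panels. SREBF1, STARD4, ACLY, FASN, IDI1 and PCYT1A were called lower with shXBP1 in both lines, and GPAM (its brighter probe set) higher in both. MSMO1 and SC5D (its brighter probe set) were called in opposite directions. The arrays of INSIG1, ELOVL6, HMGCS1 and LPIN1 also parted in opposite directions, with a call in a single line. SREBF2 was lower on the shXBP1 arrays of both lines and called in MDA-MB-231 only.

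The enzymes that supply acyl-CoA to both branches included ACLY, the gene that fell furthest in both lines. This enzyme, which cleaves citrate into cytosolic acetyl-CoA, read 12.82 and 12.74 with shCtrl and 11.43 and 11.47 with shXBP1 in T47D, a change of -1.33 (SE 0.084, adjusted p = 4.85e-05), which is 2.52-fold lower. MDA-MB-231 gave 12.63 and 12.63 with shCtrl and 11.82 and 11.89 with shXBP1, for a change of -0.78 (SE 0.084, adjusted p = 0.000969), which is 1.72-fold lower. Neither line had any overlap between hairpins, and the 2 further ACLY probe sets fell as well (-1.47 and -1.35 in T47D, -0.43 and -0.48 in MDA-MB-231). ACSS2, which makes acetyl-CoA from acetate, read 8.62 and 8.53 with shCtrl and 7.79 and 7.72 with shXBP1 in T47D, a change of -0.82 (SE 0.11, adjusted p = 0.000988). In MDA-MB-231 ACSS2 was slightly higher with shXBP1, at 7.78 and 8.03 with shCtrl and 8.12 and 8.05 with shXBP1, and the change of 0.17 (SE 0.11, adjusted p = 0.336) did not pass. AACS, which activates acetoacetate for lipid synthesis, read 9.59 and 9.78 with shCtrl and 8.87 and 8.89 with shXBP1 in T47D (-0.80, SE 0.092, adjusted p = 0.000531). Its MDA-MB-231 values of 9.16 and 9.13 with shCtrl and 9.26 and 9.22 with shXBP1 gave 0.092 (SE 0.092, adjusted p = 0.569). Thus 3 of 3 supply enzymes fell in T47D, and 1 of 3, ACLY, fell in MDA-MB-231, where 13.5% and 6.68% of all genes fell.

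In the fatty acid branch, read from the brightest probe sets, FASN fell in both lines while the other calls were made in a single line. In T47D, 4 of the 8 measured enzymes fell (ACACA, FASN, SCD and FADS2) and 0 rose (limma; 5 fell and 0 rose at an unadjusted p under 0.05), with a branch median of -0.42. Over all genes 13.5% fell and 15.5% rose there. ACACA, the acetyl-CoA carboxylase that makes malonyl-CoA in the cytosol, read 10.20 and 10.15 with shCtrl and 9.70 and 9.65 with shXBP1, for a change of -0.50 (SE 0.098, adjusted p = 0.00653). ACACA lost its T47D call without T47D shXBP1 replicate 2 (-0.47, adjusted p = 0.0511, and 0.000326 to 0.0511 over all alternatives). On the MDA-MB-231 arrays it read 9.07 and 8.97 with shCtrl and 9.16 and 9.35 with shXBP1, higher rather than lower with shXBP1, at 0.23 (SE 0.098, adjusted p = 0.157). Another, dimmer ACACA probe set gave -0.29 in T47D and -0.11 in MDA-MB-231 and passed in neither (adjusted p = 0.0844 and 0.581 over all probe sets). ACACB, the mitochondrial carboxylase, gave 0.088 and 0.030 in the 2 lines (adjusted p = 0.491 and 0.850).

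FASN, the fatty acid synthase, read 9.61 and 9.47 with shCtrl and 8.53 and 8.52 with shXBP1 in T47D, a change of -1.01 (SE 0.090, adjusted p = 0.000170). Its MDA-MB-231 values were 9.83 and 9.80 with shCtrl and 9.26 and 9.35 with shXBP1, for a change of -0.51 (SE 0.090, adjusted p = 0.00795). The shXBP1 arrays lay below the shCtrl arrays in both. A second, dimmer FASN probe set gave 0.015 in T47D and -0.030 in MDA-MB-231 (adjusted p = 0.945 and 0.890 over all probe sets). SCD, the desaturase that makes monounsaturated fatty acids, read 13.34 and 13.47 with shCtrl and 12.76 and 12.73 with shXBP1 in T47D, where it fell by 0.66 (SE 0.11, adjusted p = 0.00324). In MDA-MB-231 it read 12.54 and 12.44 with shCtrl and 12.34 and 12.61 with shXBP1, so the groups overlapped, and the change was -0.016 (SE 0.11, adjusted p = 0.949) with a 95% interval of -0.28 to 0.24. All 4 SCD probe sets fell in T47D, and 2 of the 4 fell in MDA-MB-231 (-0.55 and -0.50, adjusted p = 0.00898 and 0.0138 over all probe sets).

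ELOVL6, which elongates the products of the synthase, was the largest rise among the 39 genes in MDA-MB-231. It read 7.46 and 7.66 with shCtrl and 8.50 and 8.83 with shXBP1 there, a change of 1.11 (SE 0.15, adjusted p = 0.00270), and its 3 probe sets all rose. In T47D the values were 7.96 and 7.94 with shCtrl and 7.43 and 7.76 with shXBP1, for a change of -0.36 (SE 0.15, adjusted p = 0.128). The shXBP1 arrays were thus the higher ones in MDA-MB-231 and the lower ones in T47D. ACSL1, which activates long-chain fatty acids, read 8.14 and 8.17 with shCtrl and 8.55 and 8.82 with shXBP1 in MDA-MB-231, a rise of 0.53 (SE 0.12, adjusted p = 0.0180). ACSL1 lost its MDA-MB-231 call without MDA-MB-231 shCtrl replicate 1 or 2 or MDA-MB-231 shXBP1 replicate 2 (0.40 to 0.55, adjusted p = 0.0589 to 0.0779, and 0.00154 to 0.0779 over all alternatives). In T47D its values of 9.43 and 9.59 with shCtrl and 9.52 and 9.43 with shXBP1 overlapped, at -0.039 (SE 0.12, adjusted p = 0.858). FADS2, the desaturase of polyunsaturated fatty acids, fell in T47D (-0.49, SE 0.13, adjusted p = 0.0237) and gave -0.20 in MDA-MB-231 (adjusted p = 0.369). FADS2 lost its T47D call without T47D shCtrl replicate 2 or T47D shXBP1 replicate 1 or 2 (-0.52 to -0.30, adjusted p = 0.0873 to 0.118, and 0.00772 to 0.726 over all alternatives). With the mean over its probe sets in place of the brightest, FADS2 gave -0.30 in T47D (adjusted p = 0.124). ELOVL5, an elongase of polyunsaturated fatty acids, gave -0.14 and -0.062 and passed in neither line. The branch median in MDA-MB-231 was 0.0075, with 1 fall and 2 rises, where 6.68% of all genes fell and 10.6% rose.

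In the sterol branch, T47D showed 9 falls and 3 rises among 15 measured enzymes, and MDA-MB-231 showed 2 falls and 2 rises. Over all genes 13.5% fell and 15.5% rose in T47D, and 6.68% fell and 10.6% rose in MDA-MB-231. HMGCS1, which condenses acetyl-CoA and acetoacetyl-CoA early in the pathway, rose in T47D against the general direction. HMGCS1 read 10.36 and 10.46 with shCtrl and 10.93 and 10.96 with shXBP1 there, a change of 0.54 (SE 0.086, adjusted p = 0.00257). In MDA-MB-231 it read 9.77 and 9.77 with shCtrl and 9.51 and 9.59 with shXBP1, lower with shXBP1, and the change of -0.22 (SE 0.086, adjusted p = 0.141) did not pass. A second, dimmer HMGCS1 probe set gave 0.35 and 0.25, neither of which passed (adjusted p = 0.246 and 0.432 over all probe sets). ACAT2, the cytosolic thiolase that precedes it, fell in T47D (-0.32, SE 0.097, adjusted p = 0.0392). ACAT2 lost its T47D call without T47D shCtrl replicate 1 or 2, T47D shXBP1 replicate 1 or MDA-MB-231 shCtrl replicate 1 or 2 (-0.33 to -0.23, adjusted p = 0.0526 to 0.243, and 0.00621 to 0.243 over all alternatives). ACAT2 gave -0.065 in MDA-MB-231 (adjusted p = 0.718).

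Of the mevalonate and isoprenoid enzymes, IDI1 alone fell in both lines. IDI1, the isomerase of isopentenyl diphosphate, read 12.80 and 12.86 with shCtrl and 12.29 and 12.16 with shXBP1 in T47D, a change of -0.60 (SE 0.087, adjusted p = 0.00151). It read 11.73 and 11.74 with shCtrl and 11.17 and 11.15 with shXBP1 in MDA-MB-231 (-0.57, SE 0.087, adjusted p = 0.00409). The hairpin groups stood apart in each line and the effects differed by 0.031 (95% interval -0.26 to 0.32). When probe sets ending in _x_at or _s_at were passed over, the MDA-MB-231 change of IDI1 was -0.40 (adjusted p = 0.187). PMVK, the phosphomevalonate kinase, fell in T47D (-0.40, SE 0.093, adjusted p = 0.0138) and rose in MDA-MB-231 (0.37, SE 0.093, adjusted p = 0.0310). PMVK lost its T47D call without T47D shCtrl replicate 2 or T47D shXBP1 replicate 1 or 2 (-0.42 to -0.33, adjusted p = 0.0666 to 0.0891, and 0.00130 to 0.0891 over all alternatives). PMVK lost its MDA-MB-231 call without T47D shXBP1 replicate 1 or 2, MDA-MB-231 shCtrl replicate 1 or 2 or MDA-MB-231 shXBP1 replicate 1 (0.32 to 0.40, adjusted p = 0.0636 to 0.127, and 0.00376 to 0.127 over all alternatives). FDPS, which makes farnesyl diphosphate, fell in T47D (-0.60, SE 0.10, adjusted p = 0.00368) and gave -0.10 in MDA-MB-231 (adjusted p = 0.577). MVK and MVD, the mevalonate kinase and the diphosphate decarboxylase, passed in neither line, with MVD at -0.34 and -0.31 and MVK at 0.10 and 0.080.

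The enzymes from squalene onward included MSMO1 and SC5D, which were called in opposite directions in the lines, SC5D with 1 of its 2 probe sets. SQLE, the squalene epoxidase, an oxygen-dependent step, read 11.47 and 11.50 with shCtrl and 10.81 and 10.89 with shXBP1 in T47D, a change of -0.64 (SE 0.085, adjusted p = 0.00102). In MDA-MB-231 the SQLE groups overlapped, at 9.97 and 9.90 with shCtrl and 9.97 and 10.00 with shXBP1, with a change of 0.053 (SE 0.085, adjusted p = 0.739) and a 95% interval of -0.14 to 0.25. All 4 SQLE probe sets fell in T47D, and 1 of the 4 fell in MDA-MB-231 (-0.61, adjusted p = 0.00913 over all probe sets). MSMO1, the methylsterol monooxygenase, read 11.87 and 11.93 with shCtrl and 11.18 and 11.26 with shXBP1 in T47D, a fall of 0.68 (SE 0.11, adjusted p = 0.00231). On the MDA-MB-231 arrays MSMO1 read 9.85 and 10.10 with shCtrl and 10.66 and 10.56 with shXBP1, a rise of 0.64 (SE 0.11, adjusted p = 0.00618). Its arrays thus parted without overlap in both lines, in opposite directions.

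SC5D, the sterol desaturase of a late step, rose in T47D and fell in MDA-MB-231 with its brighter probe set. It read 12.32 and 12.41 with shCtrl and 13.18 and 13.06 with shXBP1 in T47D, a rise of 0.76 (SE 0.093, adjusted p = 0.000689). It read 9.73 and 9.67 with shCtrl and 9.08 and 9.18 with shXBP1 in MDA-MB-231, a change of -0.57 (SE 0.093, adjusted p = 0.00535). The only other SC5D probe set was dim (mean 4.14) and gave -0.35 and -0.092, with an adjusted p of 0.327 and 0.836 over all probe sets, so the calls in both lines rest on the brighter one. The mean of both SC5D probe sets lost the call in each line, at 0.21 (adjusted p = 0.249) in T47D and -0.33 (adjusted p = 0.0947) in MDA-MB-231. HSD17B7, a sterol ketoreductase, read 9.18 and 9.21 with shCtrl and 9.51 and 9.76 with shXBP1 in T47D (0.44, SE 0.12, adjusted p = 0.0233). Its MDA-MB-231 values of 9.65 and 9.75 with shCtrl and 9.69 and 9.49 with shXBP1 overlapped, at -0.11 (SE 0.12, adjusted p = 0.595). HSD17B7 lost its T47D call without T47D shCtrl replicate 1 or 2 or T47D shXBP1 replicate 2 (0.32 to 0.46, adjusted p = 0.0810 to 0.161, and 0.00226 to 0.161 over all alternatives). HSD17B7 and FDPS both have pseudogenes close in sequence, from which a probe set may not separate them. NSDHL, EBP and DHCR7, which act between lanosterol and cholesterol, fell in T47D by 0.51, 0.63 and 0.53 (adjusted p = 0.00284, 0.00188 and 0.0101) and gave -0.26, 0.22 and 0.23 in MDA-MB-231, where none of the 3 passed. DHCR7 lost its T47D call without T47D shCtrl replicate 2 or T47D shXBP1 replicate 2 (-0.46 to -0.45, adjusted p = 0.0665 to 0.0789, and 0.000409 to 0.0789 over all alternatives). LSS, the lanosterol synthase, gave -0.12 and -0.30 and passed in neither line.

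Set side by side, the medians of the sterol and fatty acid branches were compared within each line. The sterol median was -0.40 and the fatty acid median -0.42 in T47D, a difference of 0.024 against a spread between replicates of 0.13 (SD). In MDA-MB-231 the medians were -0.10 and 0.0075, a difference of -0.11 against 0.12. With all arrays of a line neither difference was larger than the spread between replicates. That spread is of single arrays, while the differences use means of 2 arrays. It is therefore too wide a measure to show that the branch medians were alike. Leaving out 1 T47D array gave differences of -0.089 to 0.077 there. The MDA-MB-231 difference was -0.18 without MDA-MB-231 shXBP1 replicate 1, larger than that spread, and -0.0028 without MDA-MB-231 shXBP1 replicate 2. In T47D the sterol branch held 3 rises (HMGCS1, HSD17B7 and SC5D) beside its 9 falls, and the fatty acid branch held 0 rises beside 4 falls. The rises were 20% of the sterol branch, near the 15.5% of all genes that rose there. The HSD17B7 and SC5D rises did not hold in every alternative. Whether the branches differ in these counts was not tested. In T47D the median difference was -0.15 when probe sets whose names end in _x_at or _s_at were passed over, and in MDA-MB-231 it was 0.043 with the mean over probe sets.

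A few promoters are shown for the motifs they hold near the start of genes that moved together or in opposite directions. RefSeq promoters (GRCh38.p14, 250 bases before to 50 after the start) were matched for 33 of the 39 genes. The CCAAT box, bound by NF-Y, which cooperates with SREBP at many sterol genes, was searched on both strands. It was present in 11 of 13 sterol promoters (84.6%), 2 of 7 fatty acid promoters (28.6%) and 35.7% of all 27303 promoters, a difference that was not tested. Of the 6 promoters printed, SREBF2 holds a match to TCACNCCAC (a form of the sterol regulatory element, present in 1.15% of all promoters), 133 bases before the start. It was the only 1 of the 33 matched promoters with that element, which 0 of 13 sterol and 0 of 7 fatty acid promoters held. Only these exact letters in this window were searched, so a missing match does not show that a promoter lacks other forms of the element. INSIG1 holds TGACGTG, the core of the element bound by XBP1 and ATF6 (2% of all promoters), on the reverse strand, and an E-box, CACGTG (7.44%), which is shared with SC5D. HMGCS1, MSMO1, SC5D and ACLY stand for the early, the oppositely moving and the strongly falling genes, and all 4 hold a CCAAT box. Each is written 5' to 3' on the strand of its gene, with capitals marking every match to one of these motifs on either strand:
SREBF2 (chr22:41832855-41833154, forward strand): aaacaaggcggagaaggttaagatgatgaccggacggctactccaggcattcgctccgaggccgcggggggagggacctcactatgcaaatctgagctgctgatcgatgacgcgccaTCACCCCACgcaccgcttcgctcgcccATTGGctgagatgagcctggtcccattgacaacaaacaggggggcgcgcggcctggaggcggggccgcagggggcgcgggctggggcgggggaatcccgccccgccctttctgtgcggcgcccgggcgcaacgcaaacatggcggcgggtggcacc
INSIG1 (chr7:155297628-155297927, forward strand): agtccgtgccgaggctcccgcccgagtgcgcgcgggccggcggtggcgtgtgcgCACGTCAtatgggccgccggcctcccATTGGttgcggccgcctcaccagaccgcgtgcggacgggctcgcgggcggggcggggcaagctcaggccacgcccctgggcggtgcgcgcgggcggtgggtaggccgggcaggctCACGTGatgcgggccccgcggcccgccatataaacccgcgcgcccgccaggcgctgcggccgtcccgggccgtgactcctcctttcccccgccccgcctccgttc
HMGCS1 (chr5:43313363-43313662, reverse strand): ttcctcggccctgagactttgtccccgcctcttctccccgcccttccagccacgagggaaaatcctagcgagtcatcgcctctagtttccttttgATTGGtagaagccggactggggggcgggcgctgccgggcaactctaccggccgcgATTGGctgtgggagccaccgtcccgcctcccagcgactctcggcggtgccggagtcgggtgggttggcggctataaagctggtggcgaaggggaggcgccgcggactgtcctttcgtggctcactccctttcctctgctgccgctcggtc
MSMO1 (chr4:165327419-165327718, forward strand): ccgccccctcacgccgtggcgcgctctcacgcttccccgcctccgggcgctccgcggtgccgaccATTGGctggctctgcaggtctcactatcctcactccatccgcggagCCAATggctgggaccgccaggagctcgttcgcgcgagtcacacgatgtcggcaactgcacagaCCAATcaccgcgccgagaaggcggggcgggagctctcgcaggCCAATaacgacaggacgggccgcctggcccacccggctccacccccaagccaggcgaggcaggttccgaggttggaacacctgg
SC5D (chr11:121292521-121292820, forward strand): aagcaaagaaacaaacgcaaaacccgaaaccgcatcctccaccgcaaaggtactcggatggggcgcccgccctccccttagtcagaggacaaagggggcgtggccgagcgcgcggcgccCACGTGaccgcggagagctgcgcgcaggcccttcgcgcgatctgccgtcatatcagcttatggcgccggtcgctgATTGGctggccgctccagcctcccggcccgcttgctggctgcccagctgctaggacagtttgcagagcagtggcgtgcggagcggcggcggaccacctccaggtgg
ACLY (chr17:41918973-41919272, reverse strand): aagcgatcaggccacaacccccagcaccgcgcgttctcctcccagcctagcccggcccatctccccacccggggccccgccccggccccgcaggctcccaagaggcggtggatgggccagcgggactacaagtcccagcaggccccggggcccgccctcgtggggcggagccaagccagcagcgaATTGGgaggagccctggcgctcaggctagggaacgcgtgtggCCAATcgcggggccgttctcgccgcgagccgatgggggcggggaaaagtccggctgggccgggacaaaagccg
The MSMO1 promoter, of a gene that fell in T47D and rose in MDA-MB-231, holds 4 CCAAT boxes, and the SC5D promoter, of a gene that did the reverse, holds 1. The number did not follow the direction, since PMVK, called in the same directions as MSMO1, holds 0. MVK, called in neither line, holds 5. Among the 33 matched promoters, 5 held the E-box, and 2 held the XBP1 core, those of ACACB and INSIG1. None held the full ER stress element (0 of 33), which 0.0806% of all promoters hold. Matches of different motifs were counted separately even where they overlap, and a match is a description of the letters and not a bound site.

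In glycerolipid and phospholipid synthesis, T47D showed 4 falls and 2 rises among 7 genes, where 13.5% of all genes fell and 15.5% rose. LPIN1, the phosphatidate phosphatase that makes diacylglycerol and also acts as a co-regulator in the nucleus, rose furthest of all 39 genes in T47D. LPIN1 read 8.34 and 8.34 with shCtrl and 9.37 and 9.28 with shXBP1, for a change of 0.99 (SE 0.092, adjusted p = 0.000204). In MDA-MB-231 it read 9.61 and 9.63 with shCtrl and 9.24 and 9.40 with shXBP1, lower with shXBP1, and the change of -0.30 (SE 0.092, adjusted p = 0.0640) did not pass. GPAM, the mitochondrial acyltransferase of the first glycerolipid step, was the single gene that rose in both lines, with its brighter probe set. It read 8.21 and 8.26 with shCtrl and 8.87 and 9.01 with shXBP1 in T47D (0.71, SE 0.098, adjusted p = 0.00127). Its MDA-MB-231 values were 7.19 and 7.34 with shCtrl and 7.90 and 7.99 with shXBP1 (0.68, SE 0.098, adjusted p = 0.00332). The shXBP1 arrays were the higher ones in both lines. The other GPAM probe set gave 0.54 in T47D and -0.48 in MDA-MB-231 (adjusted p = 0.0539 and 0.107 over all probe sets). Its difference between the lines was called (-1.02, adjusted p = 0.0198 over all probe sets). The mean of both probe sets gave 0.10 (adjusted p = 0.601) in MDA-MB-231, with a called difference of -0.52 (adjusted p = 0.0390). With the brighter probe set that difference was -0.026 (adjusted p = 0.922).

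PCYT1A, the rate-limiting enzyme of phosphatidylcholine synthesis, fell in both lines with its brightest probe set. It read 10.64 and 10.69 with shCtrl and 9.64 and 9.64 with shXBP1 in T47D, a change of -1.02 (SE 0.081, adjusted p = 0.000106). Values in MDA-MB-231 were 9.04 and 9.07 with shCtrl and 8.71 and 8.74 with shXBP1, for a change of -0.32 (SE 0.081, adjusted p = 0.0313) with no overlap. PCYT1A lost its MDA-MB-231 call without any 1 of the 8 arrays (-0.34 to -0.31, adjusted p = 0.0518 to 0.107, and 0.00675 to 0.516 over all alternatives). Its dimmest probe set rose in MDA-MB-231 (0.53, adjusted p = 0.00789 over all probe sets), and the mean over probe sets gave 0.087 (adjusted p = 0.516). AGPAT2, which makes phosphatidic acid, read 8.93 and 9.13 with shCtrl and 8.59 and 8.57 with shXBP1 in T47D (-0.45, SE 0.12, adjusted p = 0.0267). AGPAT2 lost its T47D call without T47D shCtrl replicate 2 or T47D shXBP1 replicate 1 or 2 (-0.46 to -0.35, adjusted p = 0.108 to 0.150, and 0.00348 to 0.150 over all alternatives). In MDA-MB-231 AGPAT2 was higher with shXBP1, at 9.20 and 9.31 with shCtrl and 9.82 and 9.54 with shXBP1, and the change of 0.43 (SE 0.12, adjusted p = 0.0521) did not pass. DGAT1 and DGAT2, which complete triglyceride synthesis, fell in T47D by 0.61 and 0.54 (adjusted p = 0.00905 and 0.0386) and gave -0.11 and -0.14 in MDA-MB-231. DGAT1 lost its T47D call without T47D shCtrl replicate 2 or T47D shXBP1 replicate 2 (-0.57 to -0.53, adjusted p = 0.0608 to 0.0628, and 0.00115 to 0.0628 over all alternatives). DGAT2 lost its T47D call without T47D shCtrl replicate 2 or T47D shXBP1 replicate 1 or 2 (-0.57 to -0.33, adjusted p = 0.115 to 0.203, and 0.00405 to 0.203 over all alternatives). CHKA, the choline kinase, passed in neither line, at 0.078 and 0.16.

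Across the lines, 6 of the 39 genes fell in both: SREBF1, STARD4, IDI1, ACLY, FASN and PCYT1A. That is 15.4% of the measured genes, against 1.93% of all genes. The knockdown comparisons of the lines share no arrays, but all arrays were fitted together. Both comparisons thus use the same residual variance of a gene, and their calls are not independent. GPAM rose in both with its brighter probe set, while its other probe set passed in neither line. MSMO1 and PMVK fell in T47D and rose in MDA-MB-231, and SC5D did the reverse with its brighter probe set. Of the 6 genes that fell in both lines, ACLY, FASN and SREBF1 kept both calls in every alternative, STARD4 lost its T47D call in some, and IDI1 and PCYT1A lost their MDA-MB-231 calls in some. The dimmer SREBF1 and FASN probe sets, not read alone in the alternatives, did not pass in MDA-MB-231. A further 17 genes passed in T47D alone, 5 in MDA-MB-231 alone and 7 in neither. Passing in 1 line is not by itself a difference, so the difference between the effects was tested directly. It passed for 21 of the 39 genes, against 24.8% of all genes, with 17 changes higher in MDA-MB-231 than in T47D (13.0% of all genes) and 4 lower (11.8%). XBP1 itself, with its brighter probe set, fell less in MDA-MB-231 (difference 1.296, adjusted p = 0.00745). Line and extent of XBP1 loss thus vary together here, and the part of each was not tested. The effects lay furthest apart for ELOVL6 (1.46, SE 0.21, adjusted p = 0.00237) and MSMO1 (1.32, SE 0.15, adjusted p = 0.000911) on the one side and for SC5D (-1.33, SE 0.13, adjusted p = 0.000503) and LPIN1 (-1.28, SE 0.13, adjusted p = 0.000551) on the other. ACSS2 and AACS followed, with differences of 0.99 (SE 0.15, adjusted p = 0.00293) and 0.89 (SE 0.13, adjusted p = 0.00237). Among the 6 genes that fell in both lines, the effect was larger in T47D for ACLY (0.55, SE 0.12, adjusted p = 0.0127), FASN (0.51, SE 0.13, adjusted p = 0.0237) and PCYT1A (0.70, SE 0.11, adjusted p = 0.00396). The ACLY difference lost its call without T47D shXBP1 replicate 1 (0.53, adjusted p = 0.0571, and 5.73e-05 to 0.0571 over all alternatives). The FASN difference lost its call without any 1 array other than T47D shCtrl replicate 2 or MDA-MB-231 shXBP1 replicate 1 (0.44 to 0.52, adjusted p = 0.0536 to 0.0834, and 0.00487 to 0.171 over all alternatives). For SREBF1, STARD4 and IDI1 the difference did not pass, at 0.0090, -0.22 and 0.031. The SCD and SQLE differences (0.64 and 0.69, adjusted p = 0.0214 and 0.00500) passed with the brightest probe set, while the SCD and SQLE probe sets that fell in MDA-MB-231 gave differences of -0.045, -0.029 and 0.17 that did not pass. The SCD difference lost its call without T47D shCtrl replicate 2, T47D shXBP1 replicate 1 or 2 or MDA-MB-231 shCtrl replicate 2 (0.58 to 0.66, adjusted p = 0.0585 to 0.0761, and 0.000258 to 0.0761 over all alternatives).

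**Figure D3:**
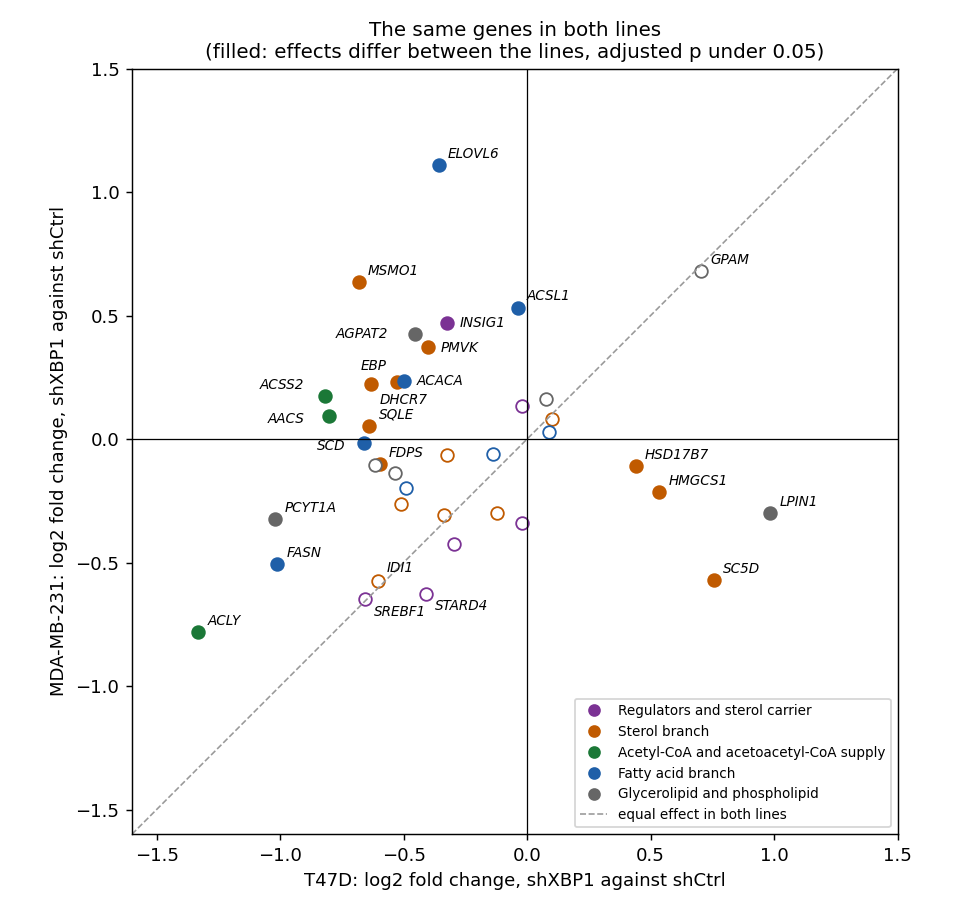
Log2 fold change of shXBP1 against shCtrl in T47D (horizontal) and MDA-MB-231 (vertical) for the 39 genes, coloured by role. Filled points are the 21 genes whose effects differ between the lines (adjusted p under 0.05), and the dashed line marks equal effects. Most filled points lie above the line (17 of 21), and SC5D, LPIN1, HMGCS1 and HSD17B7 lie below it.

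The lines also started from different levels. Between the control hairpin arrays, 30 of the 39 genes differed (49.0% of all genes did), with 11 higher in MDA-MB-231 (23.7% of all genes) and 19 higher in T47D (25.2%). The genes furthest above in MDA-MB-231 were SCAP (2.08, SE 0.095, adjusted p = 9.06e-07), NSDHL (1.41, SE 0.084, adjusted p = 3.60e-06) and LPIN1 (1.28, SE 0.092, adjusted p = 9.68e-06). Those furthest above in T47D were SC5D (-2.66, SE 0.093, adjusted p = 2.22e-07), INSIG2 (-1.94, SE 0.15, adjusted p = 1.32e-05), MSMO1 (-1.93, SE 0.11, adjusted p = 2.42e-06) and INSIG1 (-1.62, SE 0.13, adjusted p = 2.07e-05). The SC5D value was -0.43 (adjusted p = 0.151) when probe sets ending in _x_at or _s_at were passed over. SREBF1 and ACLY stood close together in the lines with their brightest probe sets, at -0.056 (95% interval -0.32 to 0.21) and -0.15 (95% interval -0.35 to 0.045). The further ACLY probe sets were lower in MDA-MB-231 (-0.37 and -0.36, adjusted p = 0.0238 and 0.0223 over all probe sets). The mean over the ACLY probe sets gave -0.29 (adjusted p = 0.0127). The comparisons of the control lines use the same shCtrl arrays as the knockdown comparisons. For MSMO1 the lines lay closer together with shXBP1 than with shCtrl, at group means of 11.90 and 9.97 with shCtrl and 11.22 and 10.61 with shXBP1 in T47D and MDA-MB-231. SC5D, with its brighter probe set, went the other way, from 12.36 and 9.70 with shCtrl to 13.12 and 9.13 with shXBP1.

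Genes around the pathway were read from lists of their own. For comparison, 13.5% of all genes fell and 15.5% rose in T47D, and 6.68% fell and 10.6% rose in MDA-MB-231. Of 6 measured genes that process or retain the SREBPs, 2 fell and 1 rose in T47D, and 1 fell and 2 rose in MDA-MB-231. MBTPS2, the site-2 protease that releases the active factor, fell in T47D (-1.07, SE 0.11, adjusted p = 0.000294) and gave -0.10 in MDA-MB-231 (adjusted p = 0.605). UBE2G2, a ubiquitin-conjugating enzyme of ER-associated degradation, rose in T47D (0.57, SE 0.11, adjusted p = 0.00581) with its brightest probe set but gave -0.46 (adjusted p = 0.0241) when probe sets ending in _x_at or _s_at were passed over. ERLIN1 and ERLIN2, membrane proteins that bind the SREBP-SCAP-INSIG complex, rose in MDA-MB-231 (1.32 and 1.06, adjusted p = 0.000170 and 0.00249). ERLIN2 lost that call when probe sets ending in _x_at or _s_at were passed over, at 0.27 (adjusted p = 0.224). RNF139, a ubiquitin ligase of sterol regulation, fell in MDA-MB-231 (-1.01, SE 0.11, adjusted p = 0.000969) and in T47D (-0.39, SE 0.11, adjusted p = 0.0294). RNF139 lost its T47D call without T47D shCtrl replicate 1 or 2 or T47D shXBP1 replicate 1 or 2 (-0.41 to -0.38, adjusted p = 0.0990 to 0.135, and 0.00131 to 0.135 over all alternatives).

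Of 12 genes of sterol storage, transport and efflux, 3 rose and 3 fell in T47D, where 15.5% of all genes rose and 13.5% fell. In MDA-MB-231, 6 rose and 1 fell, where 10.6% of all genes rose and 6.68% fell. ABCA1, the exporter of cellular cholesterol, rose in both lines (1.14 and 1.40, adjusted p = 0.00104 and 0.00101). MYLIP, a ubiquitin ligase that limits lipoprotein uptake, rose in both as well (0.97 and 1.56, adjusted p = 0.00258 and 0.000755). Both are known targets of the oxysterol receptor LXR. ABCG1, another such target, fell in T47D (-1.78, SE 0.14, adjusted p = 9.33e-05) and rose in MDA-MB-231 (0.49, SE 0.14, adjusted p = 0.0448). ABCG1 lost its MDA-MB-231 call without any 1 array other than T47D shCtrl replicate 1 or T47D shCtrl replicate 2 (0.39 to 0.60, adjusted p = 0.0576 to 0.173, and 0.0256 to 0.949 over all alternatives). ABCG1 also gave -0.032 in MDA-MB-231 (adjusted p = 0.949) when probe sets ending in _x_at or _s_at were passed over. OSBPL8, an oxysterol-binding protein homologue, fell in MDA-MB-231 (-0.72, SE 0.10, adjusted p = 0.00313). Of 16 further genes of phospholipid and sphingolipid synthesis, 7 fell and 2 rose in T47D, and 2 fell and 0 rose in MDA-MB-231 (limma; 2 fell and 2 rose at an unadjusted p under 0.05). These counts stand beside the same shares of all genes. The largest changes in T47D were those of DEGS1, the ceramide desaturase (-1.06, SE 0.089, adjusted p = 0.000136), CDS1, a CDP-diacylglycerol synthase (0.79, SE 0.094, adjusted p = 0.000589), and UGCG, the glucosylceramide synthase (0.77, SE 0.087, adjusted p = 0.000473). In MDA-MB-231 the falls were CHKB, a choline kinase (-0.38, SE 0.094, adjusted p = 0.0300), and CHPT1, a cholinephosphotransferase (-0.32, SE 0.085, adjusted p = 0.0408). CHKB lost its MDA-MB-231 call without T47D shXBP1 replicate 1 or 2, MDA-MB-231 shCtrl replicate 1 or MDA-MB-231 shXBP1 replicate 1 or 2 (-0.41 to -0.31, adjusted p = 0.0624 to 0.144, and 0.00631 to 0.144 over all alternatives). CHPT1 lost its MDA-MB-231 call without any 1 of the 8 arrays (-0.36 to -0.28, adjusted p = 0.0632 to 0.165, and 0.00187 to 0.165 over all alternatives).

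**Figure D4:**
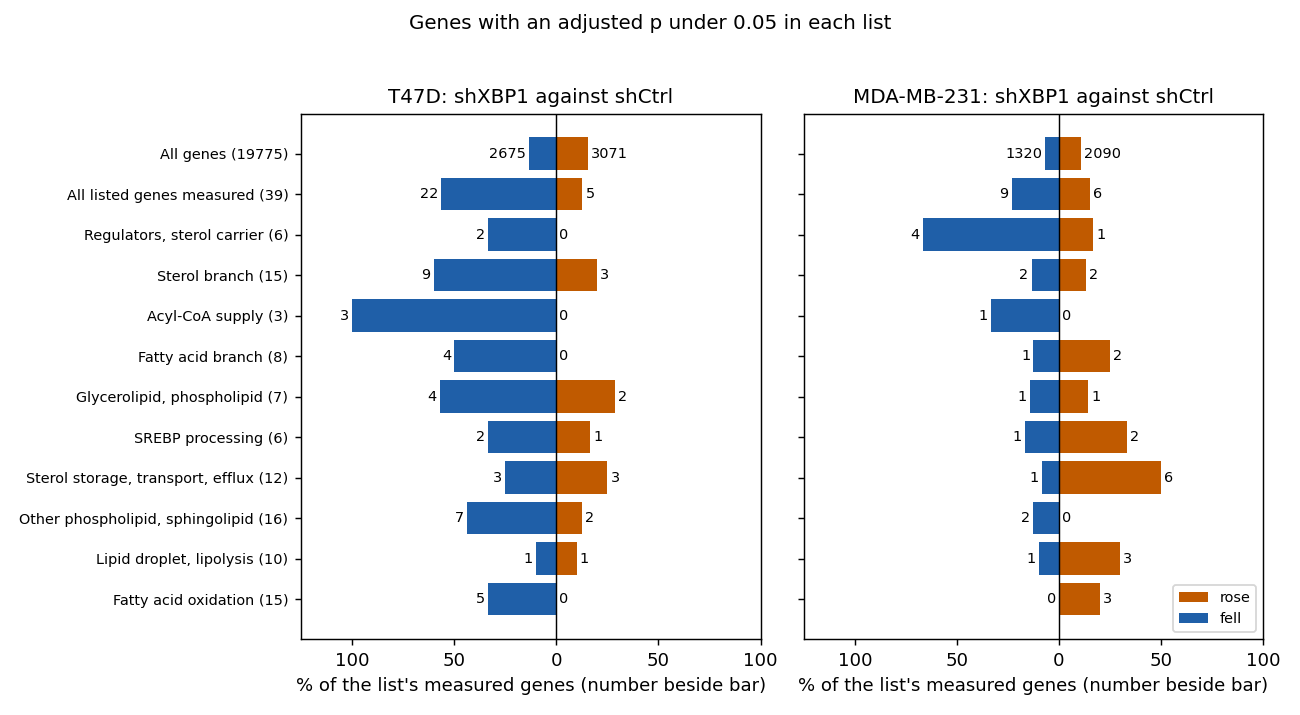
Share of each list's measured genes that rose (right of 0) or fell (left of 0) with shXBP1 at an adjusted p under 0.05, in T47D and MDA-MB-231, with the number of genes beside each bar. The top bar gives all 19775 genes. In T47D the 3 supply enzymes all fell and 22 of the 39 genes fell, while in MDA-MB-231 4 of 6 regulators and carriers fell.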

How the data were processed

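Total RNA from 8 samples was measured on 1 Affymetrix array each, with 54675 probe sets. The values the authors deposited are log2 expression levels, made with RMA and affy 1.30.0 per the submitters' processing notes. RMA subtracts background, quantile-normalizes and summarises probes. The sources used here do not give which arrays were normalized as 1 set. The values carry no detection calls, and folds against dim levels are compressed.

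Groups came from the labels. Of 42898 probe sets in the annotation table, 1801 with several symbols were not used, and each gene took its brightest probe set among the 41091 with 1 symbol. The 4 group means of 19775 genes were fitted together in limma 3.58.1 (R 4.3.3), with 4 residual degrees of freedom (7.61 after moderation). Tests were two-sided and called at an adjusted p under 0.05. The number of arrays limits precision, and the median SE of a knockdown change was 0.119 (0.168 for the difference between lines). Tests of single probe sets were adjusted over all 41091. The code was tested on simulated data.

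The genes and lists were chosen with earlier results of these data known. Values on every array were given for SREBF1, SREBF2, SCAP, INSIG1, INSIG2, HMGCS1, SQLE, ACLY, ACACA, FASN and SCD, and for the 5 largest rises and falls among called genes in each knockdown comparison and in the difference between lines. The other genes are given by change or count, and each surrounding list by up to 3 called genes with the largest change per line. Alternatives covered the choice of probe set, filters on dim genes, repeated quantile normalization, moderation with trend, a replicate block, fits within 1 line and leaving out each array.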

Additional observations from a re-analysis of the deposited data

Results flagged for a closer look

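The difference between the knockdown effects of the 2 lines (the MDA-MB-231 change minus the T47D change, log2) passed the limma test for 21 of the 39 lipid synthesis genes. XBP1 itself fell less in MDA-MB-231 with its brighter probe set, and the part of that in these differences was not tested. The change was higher in MDA-MB-231 for ELOVL6 (1.46), MSMO1 (1.32), ACSS2 (0.99), AACS (0.89), AGPAT2 (0.88), EBP (0.85), INSIG1 (0.79), PMVK (0.77), DHCR7 (0.76), ACACA (0.73), PCYT1A (0.70), SQLE (0.69), SCD (0.64), ACSL1 (0.57), ACLY (0.55), FASN (0.51) and FDPS (0.50). It was lower in MDA-MB-231 for SC5D (-1.33), LPIN1 (-1.28), HMGCS1 (-0.75) and HSD17B7 (-0.55). Of these calls, 10 held in every alternative: AACS, ACACA, ACSS2, AGPAT2, ELOVL6, LPIN1, MSMO1, PCYT1A, PMVK and SQLE. The alternatives did not read every dimmer probe set alone, and some of those did not pass. They gave differences of 0.19 for ACACA (adjusted p = 0.442 over all probe sets), 0.49 and 0.31 for PCYT1A (0.0601 and 0.159) and 0.17 for 1 SQLE probe set (0.516). The ACSL1 difference lost its call without any 1 array other than MDA-MB-231 shXBP1 replicate 1 (0.44 to 0.65, adjusted p = 0.0518 to 0.127, and 0.00817 to 0.127 over all alternatives). The DHCR7 difference lost its call without T47D shXBP1 replicate 2 (0.68, adjusted p = 0.0531, and 0.000468 to 0.0531 over all alternatives). The FDPS difference lost its call without any 1 array other than T47D shCtrl replicate 1 (0.37 to 0.52, adjusted p = 0.0842 to 0.137, and 0.00239 to 0.137 over all alternatives). The HSD17B7 difference lost its call without any 1 array other than T47D shXBP1 replicate 1 or MDA-MB-231 shXBP1 replicate 1 (-0.60 to -0.43, adjusted p = 0.0706 to 0.151, and 0.00688 to 0.151 over all alternatives). The INSIG1 difference lost its call without T47D shCtrl replicate 2 or T47D shXBP1 replicate 1 (0.74 to 0.77, adjusted p = 0.0591 to 0.0715, and 0.000886 to 0.0715 over all alternatives). The SCD difference lost its call without T47D shCtrl replicate 2, T47D shXBP1 replicate 1 or 2 or MDA-MB-231 shCtrl replicate 2 (0.58 to 0.66, adjusted p = 0.0585 to 0.0761, and 0.000258 to 0.0761 over all alternatives). The ACLY difference lost its call without T47D shXBP1 replicate 1 (0.53, adjusted p = 0.0571, and 5.73e-05 to 0.0571 over all alternatives). The FASN difference lost its call without any 1 array other than T47D shCtrl replicate 2 or MDA-MB-231 shXBP1 replicate 1 (0.44 to 0.52, adjusted p = 0.0536 to 0.0834, and 0.00487 to 0.171 over all alternatives). With the mean over probe sets, HMGCS1 gave -0.42 (adjusted p = 0.0836) and EBP 0.38 (adjusted p = 0.0509). SC5D gave 0.25 (adjusted p = 0.628) when probe sets ending in _x_at or _s_at were passed over.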

How the results depend on the processing

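The direction and call of 16 of the 27 genes called in T47D, 6 of 15 in MDA-MB-231, 10 of 21 for the difference between lines and 23 of 30 between the controls held in every alternative. In T47D those 16 were AACS, ACLY, ACSS2, EBP, FASN, FDPS, GPAM, HMGCS1, IDI1, LPIN1, MSMO1, NSDHL, PCYT1A, SCD, SQLE and SREBF1, and in MDA-MB-231 the 6 were ACLY, ELOVL6, FASN, MSMO1, SREBF1 and STARD4. Leaving out 1 array gave 18 to 29 called genes in T47D, 9 to 14 in MDA-MB-231, 15 to 20 for the difference and 28 to 30 between the controls, where a lone remaining array is assumed to vary like the other groups. With only the 4 MDA-MB-231 arrays the count was 9 rather than 15, and with only the 4 T47D arrays it was 28 rather than 27. The cause was not tested. The difference between sterol and fatty acid medians moved to -0.153 in T47D when probe sets not ending in _x_at or _s_at were preferred and to 0.0428 in MDA-MB-231 with the mean over probe sets, and ran from -0.0889 to 0.0766 in T47D and from -0.177 to -0.00282 in MDA-MB-231 on leaving out 1 array. With the first of these settings the sign turned for SC5D in T47D (-0.35, adjusted p = 0.317) and in the difference (0.25, adjusted p = 0.628), for UBE2G2 in T47D (-0.46, adjusted p = 0.0241) and in the difference (0.73, adjusted p = 0.0190), and in MDA-MB-231 for ABCG1 (-0.032, adjusted p = 0.949) and ACAA2 (-0.045, adjusted p = 0.915). It also turned in MDA-MB-231, when probe sets were averaged, for PCYT1A (0.087, adjusted p = 0.516), ABHD5 (-0.0031, adjusted p = 0.987) and CEPT1 (-0.31, adjusted p = 0.0411). Those turns come with another probe set being read, and their cause was not tested. Replicate numbers did not pair the samples: the 6 correlations of replicate 1 deviations between groups lay between -0.069 and 0.0381, 0 of them over 0.1. With the replicate block 25 genes were called in T47D, 11 in MDA-MB-231, 19 for the difference and 29 between the controls. Quantile normalization applied again shifted the median of all genes by 0.021 or less in size. Arrays carry no detection calls, so signal over background could not be set as a limit, and folds of dim probe sets are compressed.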

Other observations

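Lists of genes that burn or store fatty acids were read beside those that make them. For all genes the shares were 13.5% falling and 15.5% rising in T47D, and 6.68% falling and 10.6% rising in MDA-MB-231. Of 15 measured genes of mitochondrial fatty acid oxidation, 5 fell and 0 rose in T47D (limma; 9 fell and 0 rose at an unadjusted p under 0.05), and 3 rose and 0 fell in MDA-MB-231 (3 rose and 1 fell unadjusted). HADHB, a subunit of the trifunctional protein, fell in T47D (-0.99, SE 0.080, adjusted p = 0.000117), as did CPT1A, the carnitine acyltransferase that admits fatty acids to the mitochondrion (-0.83, SE 0.082, adjusted p = 0.000266), and ACAA2, a thiolase (-0.76, SE 0.087, adjusted p = 0.000496). ACAA2 lost its T47D call when probe sets ending in _x_at or _s_at were passed over, at -0.34 (adjusted p = 0.261). In MDA-MB-231 SLC25A20, the carnitine carrier, rose by 1.64 (SE 0.12, adjusted p = 0.000257), CPT2 by 0.67 (SE 0.15, adjusted p = 0.0185) and ACAA2 by 0.36 (SE 0.087, adjusted p = 0.0284). CPT2 lost its MDA-MB-231 call without MDA-MB-231 shCtrl replicate 1 or 2 or MDA-MB-231 shXBP1 replicate 2 (0.51 to 0.73, adjusted p = 0.0513 to 0.0849, and 0.00136 to 0.0849 over all alternatives). ACAA2 lost its MDA-MB-231 call without T47D shXBP1 replicate 1 or 2, MDA-MB-231 shCtrl replicate 2 or MDA-MB-231 shXBP1 replicate 1 or 2 (0.29 to 0.37, adjusted p = 0.0612 to 0.121, and 0.00189 to 0.988 over all alternatives). Of 10 genes of lipid droplets and lipolysis, 1 rose and 1 fell in T47D (10% each, below the shares of all genes), and 3 rose and 1 fell in MDA-MB-231. MGLL, the monoglyceride lipase, rose in both lines (1.26 and 0.73, adjusted p = 0.000113 and 0.00288). PLIN3, a droplet coat protein, fell in T47D (-0.53, SE 0.081, adjusted p = 0.00191). In MDA-MB-231 HILPDA, a hypoxia-induced droplet protein, fell (-0.85, SE 0.12, adjusted p = 0.00265) and ABHD5, the co-activator of triglyceride lipase, rose with its brightest probe set (0.77, SE 0.12, adjusted p = 0.00407). The mean over the ABHD5 probe sets gave -0.0031 (adjusted p = 0.987).

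Of the 39 lipid synthesis genes, 27 had more than 1 probe set, with 51 probe sets beside the brightest ones. In T47D no further probe set was called against the direction of a called gene, and in MDA-MB-231 this was so for 2 genes, INSIG1 and PCYT1A. A further probe set was called where the brightest was not for 3 genes in T47D (ELOVL5, ELOVL6 and INSIG1) and for 4 in MDA-MB-231 (CHKA, LPIN1, SCD and SQLE).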
